A study of Mus musculus with 4 samples.

Results

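The anthracycline doxorubicin treats many tumours, and its damage to the heart can come long after treatment ends. The drug slides between the bases of DNA and traps type II topoisomerases on broken strands, and the endothelium that lines cardiac vessels is among the cells it reaches first. Cardiac capillary endothelium passes fatty acids to the muscle, carries the adhesion molecules that slow leukocytes and divides rarely in the adult. The comparison described here is the late state of wild-type (WT) cardiac endothelium after doxorubicin, given by the library WT Dox against the library WT saline, which are 2 of the 4 libraries of the series. All 4 groups were male mice, 20 weeks old when the cells were taken. WT and Smad3 KO mice (129-Smad3tm1Par/J, a deletion carried in every cell of the body) received 4 weekly intravenous injections of 5 mg/kg doxorubicin or of saline from 7 weeks of age, and the hearts were taken 9 wk after the last injection. The hearts were perfused and digested, and cells were selected in repeated rounds on beads that bind CD31 (Pecam1). Each group had 1 library, so the differences have no replicate check and no error, interval over mice or test can be given. Both Smad3 KO libraries are set beside the pair only to show where a WT library also stood away from them.

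A level is given in FPKM, the fragment count of a gene corrected for the length of its transcript and for the size of the library. A difference is log2(FPKM + 0.5) in WT Dox minus that in WT saline, taken over the 12325 of 45882 gene IDs whose 4 libraries averaged 1 FPKM or more. The words rose and fell are kept for differences of at least 1 in size. The added 0.5 understates the change of genes with low levels. Where 4 levels of a gene are given, the saline library precedes the Dox library and the WT pair precedes the Smad3 KO pair, and the number in brackets after them is the log2 difference within the WT pair. In RNA from a bead selection, fewer cells of a type and less RNA per cell cannot be told apart.

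The labels of 2 libraries are in conflict. The library titled WT Dox carries a genotype tag of Smad3 KO, and the one titled Smad3 KO saline a tag of WT. By the tags there would be no WT Dox library at all, so the comparison exists only by title, which the column names of the table follow. Smad3, the targeted gene, had 2.95, 2.09, 1.02 and 0.848 FPKM. Both libraries titled WT stood above both titled Smad3 KO, and transcript of the gene was still measured in the latter. The label for treatment protocol names doxorubicin for all 4 samples, saline included, and the groups here follow the title and the treatment tag.

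The steps between low values gave estimated depths of 28.5 and 26.6 M fragments for the WT pair (saline, then Dox) and of 26.2 and 21.5 M for the Smad3 KO pair. At these depths a transcript of 2 kb at 1 FPKM rests on about 57 fragments in WT saline and 53 in WT Dox, and counting alone gives its log2 ratio a 95% interval of 0.54 to either side. At 5 FPKM the interval reaches 0.24. These intervals cover counting error only. Mitochondrially encoded genes took 10.5%, 16.8%, 20.1% and 8.95% of the summed FPKM of the libraries, and globin genes 0.864%, 0.753%, 1.54% and 5.04%.

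The selected cells carried the defining transcripts of endothelium. Pecam1, the bead antigen, had 499, 488, 511 and 401 FPKM, and Kdr, a receptor for VEGF, had 253, 264, 282 and 222 FPKM. The 26 genes of the pan-endothelial list summed to 4737 FPKM without and 4775 FPKM after doxorubicin in WT, and none of them rose or fell. RNA of other cells was present in both. The 46 cardiomyocyte genes summed to 2001 and 2379 FPKM in the WT pair, and to 2905 and 3587 FPKM in the Smad3 KO libraries. The 39 macrophage genes summed to 1375 and 1555 FPKM in the WT pair, above the 951 and 707 FPKM of the Smad3 KO libraries. The 28 fibroblast genes lay between 549 and 592 FPKM in all 4. Red blood cell genes differed little within the WT pair, at 4535 and 4526 FPKM, and were higher in both Smad3 KO libraries. The defining markers of neutrophils and T cells averaged under 1 FPKM, with S100a8 at 0.05, 0.342, 0.813 and 0.624 FPKM and Cd3e at 0.577, 0.549, 0.539 and 0.912 FPKM. Of the wider lists, 5 of 17 neutrophil genes and 15 of 32 T and NK cell genes were above the filter.

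**Figure D1:**
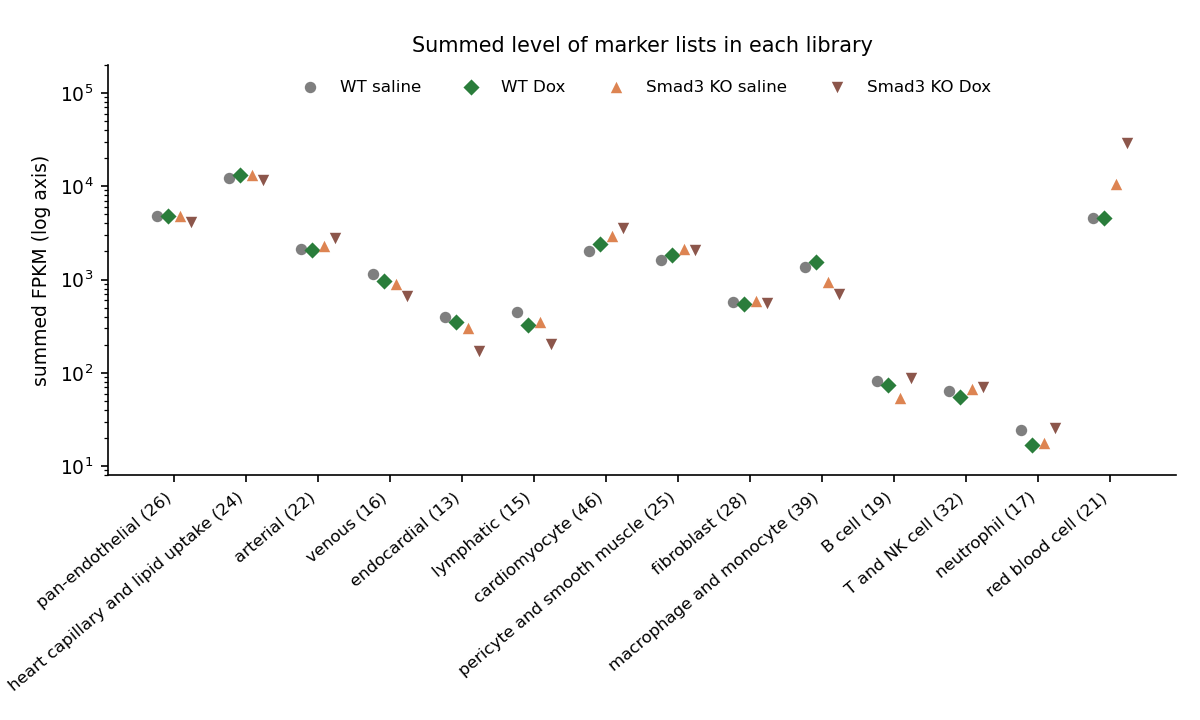
Summed FPKM (log axis) of the genes of 14 marker lists in each of the 4 libraries, 1 point per library, with the number of genes of each list in brackets. WT saline and WT Dox stood close to each other in most lists (pan-endothelial 4737 and 4775 FPKM), while the red blood cell sum was 4526 FPKM in WT Dox and 28912 FPKM in Smad3 KO Dox.

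The question of the comparison was which transcripts of WT cardiac endothelium still differed 9 wk after doxorubicin. Most did not differ by much. The median difference over all genes was -0.06, 81.8% of genes lay within 0.5 of 0, and 56.9% lay below 0. By the size rule 459 genes (3.72% of those examined) differed, 127 (1.03%) higher and 332 (2.69%) lower in WT Dox. Of the 8155 genes that averaged 5 FPKM or more, 42 rose and 122 fell. The lowest value of the table, 0.05 FPKM, stood in 1 of the WT libraries for 69 of the 459 genes, 43 times in WT Dox and 26 times in WT saline. Just inside the rule were Ccdc71, from 5.99 to 12.5 FPKM, and Dcbld2, from 5.97 to 2.74 FPKM, and just outside it Oxnad1, from 4.97 to 10.4 FPKM, and Zfp407, from 5.14 to 2.32 FPKM. Within 0.1 of the rule there were 106 genes inside and 128 outside. Scaling moved this split. With each library scaled to the same sum (TPM) the median of all genes was -0.24, and 111 genes rose and 630 fell. With upper-quartile scaling it was 0.05, and 161 rose and 250 fell.

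Setting the pair beside the Smad3 KO libraries divided the 459 genes by which WT library stood away from the rest. WT saline differed by at least 1 in the same direction from each of the other 3 libraries in 125 of the lower genes (1.01% of all genes) and in 25 of the higher ones (0.203%). WT Dox stood away from each of the other 3 in 35 higher genes (0.284%) and 26 lower genes (0.211%). In the remaining 67 higher and 181 lower genes neither WT library did. The first kind set WT saline apart from an untreated library, Smad3 KO saline, as well as from the treated ones. Of these 125 and 25 genes, 80 and 8 were protein coding. Of the 35 and 26 genes of WT Dox, 16 and 8 were.

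**Figure D2:**
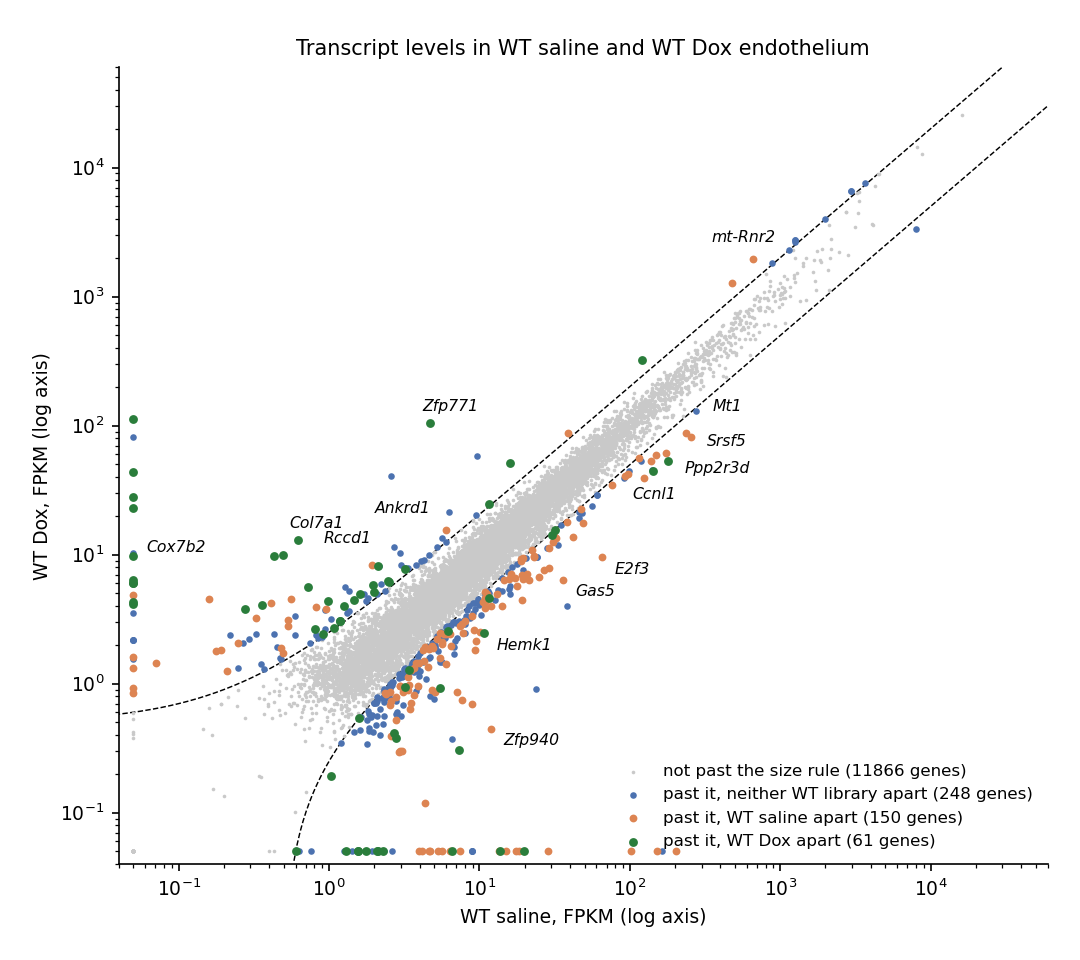
FPKM in WT saline (x axis) against WT Dox (y axis), both log axes, 1 point per gene, for the 12325 genes above the filter. Dashed lines mark a log2(FPKM + 0.5) difference of 1, colours show which WT library stood at least 1 away from each of the other 3, and the points along the left and lower edges are genes at 0.05 FPKM in 1 of the libraries.

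Genes of RNA processing held several of the falls in which WT saline stood alone. Of 112 splicing factors, 7 fell (6.25%, against 2.69% of all genes) and none rose, and the median difference was -0.22 with 80.4% below 0. Smad3 KO saline, which was untreated, had a median of -0.22 against WT saline for the same list. Srsf5, an SR protein that binds splicing enhancers in exons, had 254, 81.1, 79.5 and 106 FPKM, and Srsf2 of the same family had 150.3, 59.7, 66 and 66.5 FPKM. WT saline was the high library in both, and the other 3 lay from 79.5 to 106 FPKM for Srsf5 and from 59.7 to 66.5 FPKM for Srsf2. The differences were -1.64 for Srsf5 and -1.32 for Srsf2. Ptbp2, which represses neuronal exons, had 8.94, 3.34, 3.83 and 3.67 FPKM (-1.30). Srrm2, a large scaffold protein of nuclear speckles, had 76.2, 34.6, 37.4 and 21.2 FPKM (-1.13), and Prpf39, a component of the U1 particle, had 5.83, 2.41, 2.42 and 2.23 FPKM (-1.12). Both lost the call once the trend with transcript length was taken out (-0.94 and -0.95). Hnrnpdl went from 56 to 24 FPKM (-1.20) and had 26.4 and 39 FPKM in the Smad3 KO libraries. Its Smad3 KO Dox level lay between those of WT saline and Smad3 KO saline.

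The cyclins that attend transcription and splicing showed the same arrangement. Ccnl1, an L-type cyclin of the nuclear speckle, had 173, 61.1, 58.7 and 57.2 FPKM (-1.50), and its relative Ccnl2 had 41.7, 13.8, 12.2 and 13.5 FPKM (-1.57). In both, WT Dox lay close to each Smad3 KO library, and WT saline was far above them. Nktr, a cyclophilin with a serine- and arginine-rich tail, had 17.7, 5.74, 6.9 and 4.75 FPKM (-1.54). Paxbp1, a nuclear partner of Pax proteins, had 14.1, 3.98, 4.66 and 6.5 FPKM (-1.71). Chromatin genes did not fall more often than others, with 2 of 135 (1.48%, against 2.69% of all genes), none higher and a median of -0.24. The larger of these falls was in Kmt2b, a methyltransferase of histone H3, with 15.8, 6.51, 6.28 and 6.42 FPKM (-1.22). The other 3 libraries of Kmt2b lay between 6.28 and 6.51 FPKM.

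Host genes of small nucleolar RNAs and other long noncoding RNAs were lower as well. Of 26 host genes, 7 fell (26.9%, against 2.69% of all genes) and none rose, with a median of -0.47. Over its protein-coding members alone the median was -0.09 and 1 fell. Gas5, whose introns hold box C/D snoRNAs and whose spliced transcript is short-lived when translation runs, had 36, 6.39, 7.6 and 11.9 FPKM (-2.40). Snhg12 had 29, 11.2, 6.76 and 13.6 FPKM (-1.33) and Snhg5 15.9, 4.95, 6.46 and 9.19 FPKM (-1.59). Nop56, which encodes a core protein of the same snoRNA particles, went from 48.2 to 20.9 FPKM (-1.19) and had 35 and 31.3 FPKM in the Smad3 KO libraries. WT saline was the highest library in each of these 4. Of 20 other named long noncoding RNAs, 4 fell (20%, against 2.69% of all genes) and 1 rose (5%, against 1.03%). Firre, which is made from the X chromosome and holds chromatin in the nucleus, had 7.09, 0.86, 1.09 and 1.4 FPKM (-2.48), and Mir22hg, the host of miR-22, had 21.4, 6.31, 7.2 and 6.98 FPKM (-1.68). Rian went from 6.77 to 1.91 FPKM (-1.59), and Mir17hg, host of the miR-17 to miR-92 cluster, from 3.51 to 1.27 FPKM (-1.18, and -0.99 with a pseudocount of 1). Mir99ahg went the other way, with 0.533, 3.1, 2.62 and 2.14 FPKM (1.80) and WT saline as the low library. How the counting treated strand is not stated, and many of these loci hold other annotated RNAs, so their values cannot be told apart from those of overlapping genes. Processed transcripts as a class held 22 lower and 2 higher of 91, against 209 lower and 59 higher of 11276 protein-coding genes.

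**Figure D3:**
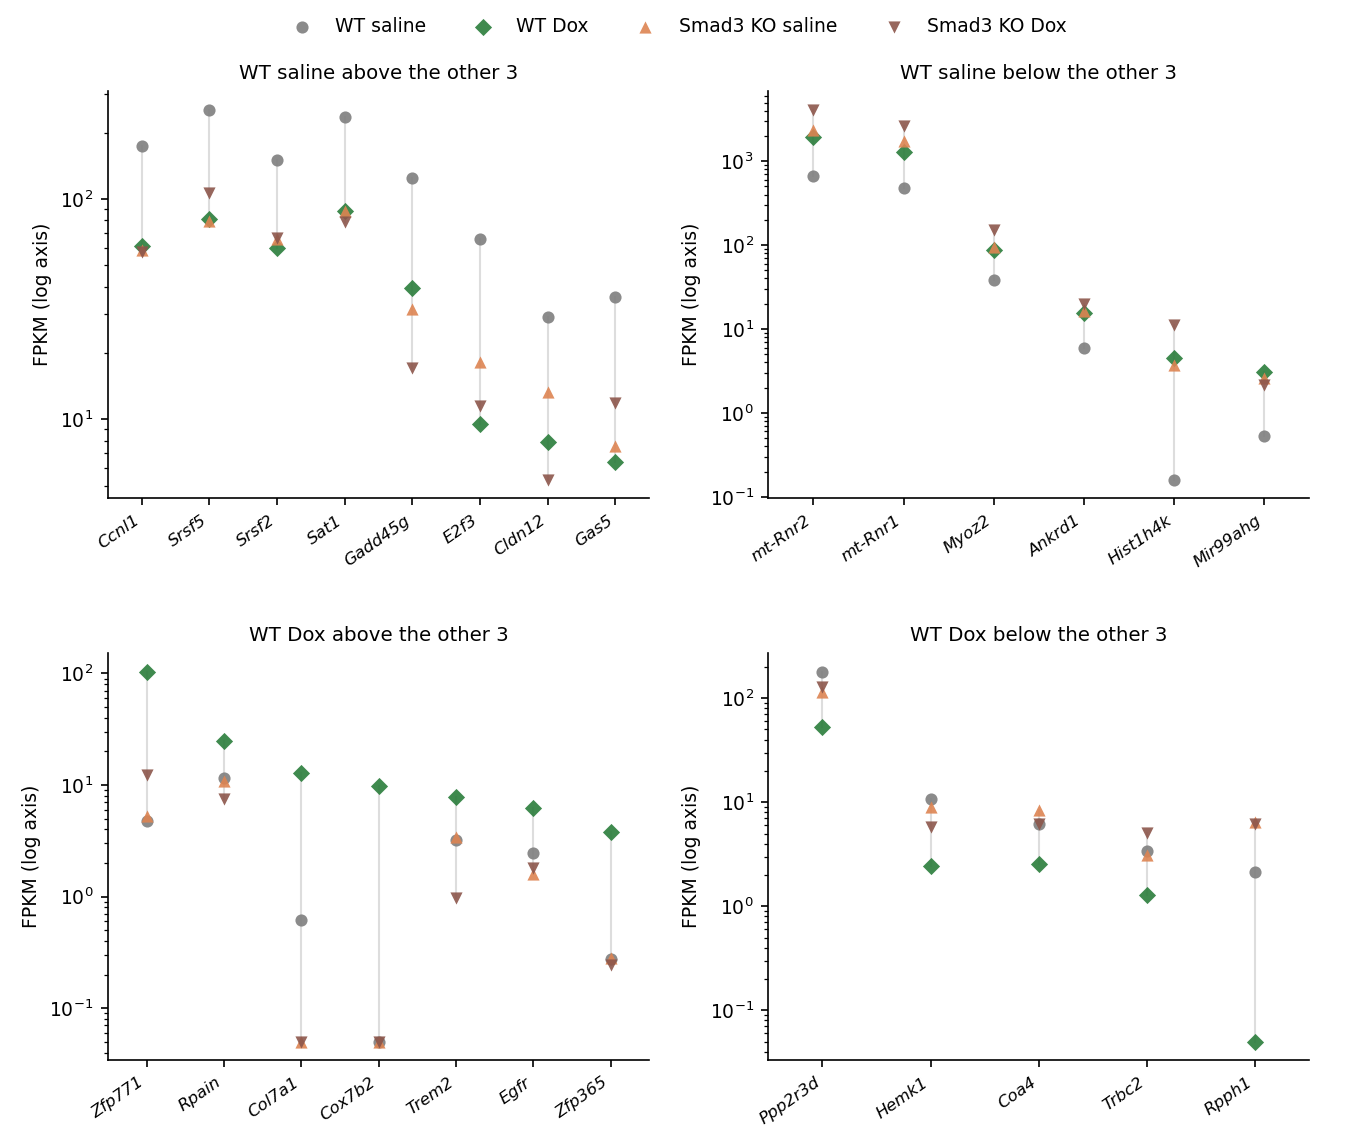
FPKM (log axis) in the 4 libraries of genes in which 1 WT library stood apart, 1 column per gene and 1 marker per library. In the upper left panel WT saline (grey circles) lay above the other 3 libraries. These sat together for some genes, as for Ccnl1 at 173 against 57.2 to 61.1 FPKM. They were spread more for others, as for Gadd45g at 124 against 17.2 to 39.3 FPKM. In the lower panels WT Dox (green diamonds) was the library that stood away, as for Zfp771 at 104 FPKM.

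Genes with many annotated exons had lower values in WT Dox than genes with few. The median difference was 0.01 in nuclear protein-coding genes with 7 to 9 annotated exons over all their transcripts and -0.27 in the 1084 genes with 43 or more, of which 77.5% lay below 0. Exon length gave a like order, from 0.04 in genes with 201 to 1741 exonic bases to -0.25 in those with 10045 or more. Smad3 KO saline against WT saline had -0.25 in the genes with 43 or more exons, and Smad3 KO Dox against WT saline -0.47. WT Dox against Smad3 KO saline had -0.02 there. WT Dox against Smad3 KO Dox, also without WT saline, ran the other way, from -0.18 at 7 to 9 exons to 0.20 at 43 or more. The contrasts against WT saline share that library. Of the 82 protein-coding genes that fell and averaged 5 FPKM or more, 73.2% had an annotated transcript with a retained intron, against 63.5% of the 7731 protein-coding genes at that level. For transcripts subject to nonsense-mediated decay the shares were 41.5% and 29.8%. Without the 5 FPKM limit the gaps were smaller, with retained-intron transcripts in 61.7% of the 209 genes that fell and 60.2% of all 11263, and decay transcripts in 71 of the 209 and in 28.9% of all. Among the genes with the most exons the median was -0.22 in the 1870 with a retained-intron transcript and -0.21 in the 230 without. With the running median over exon number taken out, 119 genes rose and 301 fell.

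**Figure D4:**
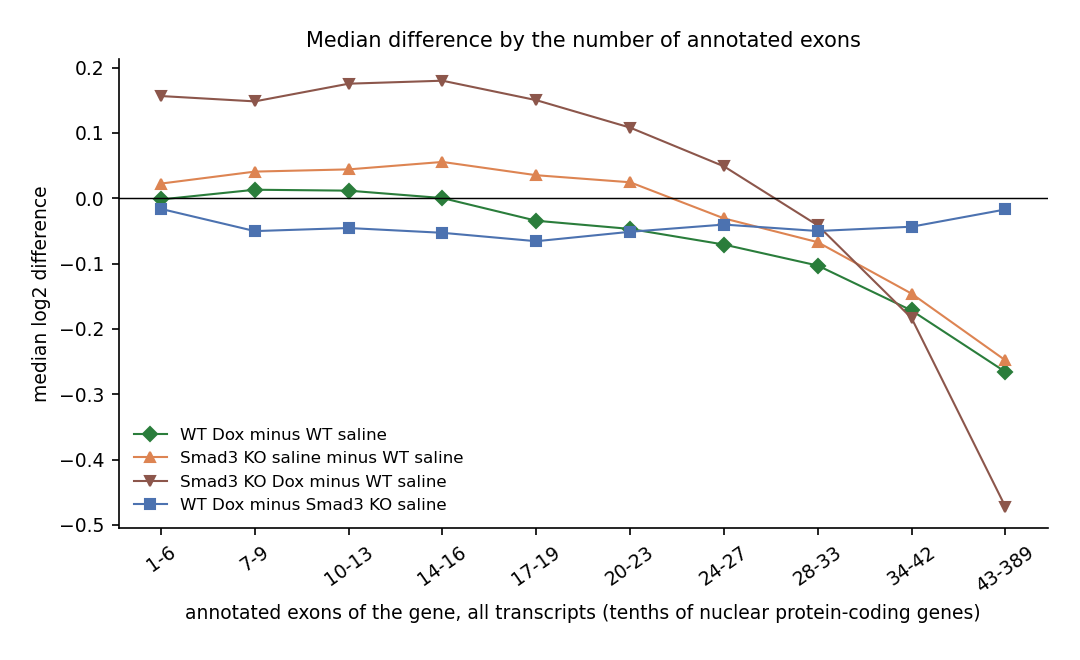
Median log2(FPKM + 0.5) difference of nuclear protein-coding genes in 10 groups by their number of annotated exons, for 3 contrasts that share the WT saline library and for WT Dox against Smad3 KO saline. The line of WT Dox minus WT saline runs from 0.01 at 7 to 9 exons to -0.27 at 43 or more. That of WT Dox minus Smad3 KO saline stays between -0.07 and -0.02. WT Dox minus Smad3 KO Dox is not drawn.

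Mitochondrially encoded transcripts were higher in WT Dox than in WT saline. They carry subunits of the respiratory chain and the RNAs of the mitochondrial ribosome. All 15 lay above 0, from 0.65 for mt-Atp8 to 1.58 for mt-Rnr2, with a median of 0.99. Of the 15, 7 rose (46.7%, against 1.03% of all genes). Against WT saline the median was higher still in the untreated Smad3 KO library, at 1.29, and 0.02 in the treated one. WT Dox had -0.27 against Smad3 KO saline and 0.88 against Smad3 KO Dox. The large ribosomal RNA mt-Rnr2 had 657, 1964, 2371 and 4105 FPKM and the small one, mt-Rnr1, 477, 1274, 1759 and 2604 FPKM (1.42). WT saline was the lowest library in both ribosomal RNAs. Among the messenger RNAs, mt-Nd1 of complex I had 3645, 7586, 10440.5 and 6526 FPKM (1.06) and mt-Co1 of complex IV 8075, 14422, 16316 and 4950.2 FPKM (0.84). Both mt-Co1 and mt-Atp8 were chosen after their values were seen. In mt-Co1 the library below WT saline was Smad3 KO Dox, so the order of the 4 libraries was not that of the ribosomal RNAs. With TPM the median of the list was 0.80 and 2 members rose, the ribosomal RNAs. A pseudogene, Gm28437, chosen after its values were seen, had 2979, 6576, 8397 and 2353 FPKM, which is nearly the 2979, 6581, 8403 and 2356 FPKM of mt-Co3, so the reads of such near-identical copies cannot be told apart. Cardiomyocytes are rich in mitochondria, and 33 of the 44 cardiomyocyte genes above the filter lay above 0 (median 0.31). The part of cardiomyocyte RNA in the mitochondrial result was not tested.

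The nuclear genes of the same complexes did not move by this size. Of 91 nuclear genes of oxidative phosphorylation the median was 0.08, and TPM turned it to -0.10. The 1 that rose was Cox7b2, a testis-type subunit of complex IV, at 0.05, 9.73, 0.05 and 0.05 FPKM, with 3 libraries at the lowest value of the table. Sdha, the flavoprotein of complex II, went from 68.6 to 98.8 FPKM (0.52) and Eci1 of fatty acid oxidation from 15.6 to 24.7 FPKM (0.64). Genes of the tricarboxylic acid cycle (median 0.04 of 25) and of fatty acid oxidation (0.16 of 32) held no gene past the rule, and both medians turned below 0 with TPM (-0.14 and -0.03). Genes of the cytosolic ribosome lay mostly above 0, with a median of 0.30 over 86 genes and 9.3% below 0, against 56.9% of all genes. Its median stayed above 0 under every alternative (0.12 to 0.42). Against WT saline the median was also 0.36 in the untreated and 0.47 in the treated Smad3 KO library, and WT Dox against Smad3 KO saline had -0.08. Rpl13a alone passed, at 876, 1813, 997 and 2457 FPKM (1.05, and 0.86 with TPM), with WT Dox and Smad3 KO Dox high. Its introns hold snoRNAs of the U32 to U35 family.

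Genes of cell division were mostly low in all libraries and lower in WT Dox. Of 39 genes of mitosis and cytokinesis 4 fell (10.3%, against 2.69% of all genes) and none rose. The median was -0.39, and 84.6% lay below 0. Against WT saline the median was also -0.50 in the untreated and -0.15 in the treated Smad3 KO library. WT Dox against Smad3 KO saline had 0.08. Cks2, which binds cyclin-dependent kinases, had 9.01, 3.54, 5.25 and 5.2 FPKM (-1.23). The proliferation marker Mki67 had 2.35, 1.07, 0.64 and 0.801 FPKM (-0.86), and the mitotic kinase Cdk1 had 3.47, 1.65, 1.52 and 1.62 FPKM (-0.88), both short of the rule. WT saline was the highest of the 4 libraries in all of them. The 10 members that averaged 5 FPKM or more had a median of -0.05, so the shift lies in the members with few fragments. Top2a, topoisomerase II alpha and a target of doxorubicin in dividing cells, had 3.24, 1.25, 1.46 and 1.34 FPKM (-1.09), and lost the call with a pseudocount of 1, with upper-quartile scaling and without the length or exon trend (highest -0.91). Top2b, the form of resting cells, had 24.5, 17.8, 17.6 and 12.8 FPKM (-0.45). Prc1, which bundles the microtubules of the spindle midzone, had 3.06, 1.2, 1.28 and 1.87 FPKM (-1.07), and lost the call under the same 4 alternatives (highest -0.89). Of 43 replication genes 1 fell (2.33%, against 2.69% of all genes) and none rose. Their median was -0.26, from -0.45 to -0.15 under the alternatives, and 83.7% lay below 0. Against WT saline this median was -0.13 in the untreated and 0.13 in the treated Smad3 KO library. WT Dox had -0.21 against Smad3 KO saline and -0.37 against Smad3 KO Dox. The gene that fell was Timeless, which holds the replication fork together. It had 45.7, 19.2, 19.1 and 24.3 FPKM (-1.23) and -0.99 without the exon trend.

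The promoters of Top2a and Prc1 from RefSeq (GRCm38.p6, 250 bases before to 50 after the annotated start, written 5′ to 3′ on the strand of the gene) are printed because both genes of cell division fell by the size rule. Capitals mark TTTGAA, the core of the cell cycle homology region through which the DREAM complex keeps mitotic genes silent in resting cells, and CCAAT, the box bound by NF-Y, each on either strand. Top2a lies at chr11:99024140-99024439 on the minus strand and Prc1 at chr7:80294201-80294500 on the plus strand.
Top2a: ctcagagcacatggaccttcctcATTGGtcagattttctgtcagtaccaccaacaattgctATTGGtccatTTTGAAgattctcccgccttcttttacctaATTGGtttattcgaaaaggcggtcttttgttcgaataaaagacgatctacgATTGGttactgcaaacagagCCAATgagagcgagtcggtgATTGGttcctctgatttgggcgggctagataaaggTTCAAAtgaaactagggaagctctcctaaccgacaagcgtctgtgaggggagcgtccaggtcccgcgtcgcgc
Prc1: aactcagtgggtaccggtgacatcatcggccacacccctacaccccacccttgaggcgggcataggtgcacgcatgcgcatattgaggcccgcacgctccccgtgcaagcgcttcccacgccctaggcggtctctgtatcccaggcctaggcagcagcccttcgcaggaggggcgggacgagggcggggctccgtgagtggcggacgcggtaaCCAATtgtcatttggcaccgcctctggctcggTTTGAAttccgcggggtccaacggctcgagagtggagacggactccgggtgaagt
Top2a held 2 matches to TTTGAA and 6 to CCAAT, and Prc1 held 1 of each. Over the 8778 genes matched to a promoter, TTTGAA stood in 11.1% and CCAAT in 38.3%. Among the 182 that fell the shares were 13.2% and 40.1%, and among the 52 that rose 11.5% and 50%. A match is a description of the letters and does not show a site in use.

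A few genes of the G1 phase and of the response to DNA damage fell. E2f3, an activator of S-phase genes, had 65.8, 9.56, 18.2 and 11.4 FPKM (-2.72), and WT saline stood far above the other 3. Of 48 genes of the E2F and Rb families, cyclins and cyclin-dependent kinases, 3 fell (6.25%, against 2.69% of all genes). They are E2f3 and the L-type cyclins above. Of 68 genes of damage signalling and repair, 3 fell (4.41%, against 2.69% of all genes) and none rose (median -0.19). Against WT saline the median of this list was -0.03 in the untreated and 0.18 in the treated Smad3 KO library. WT Dox had -0.17 against Smad3 KO saline and -0.24 against Smad3 KO Dox. Ercc2, a helicase of TFIIH, had 6.45, 1.94, 1.34 and 0.631 FPKM (-1.51), again with WT saline alone. Atr, the kinase that senses stalled forks, had 3.15, 1.26, 1.68 and 1.55 FPKM (-1.05), and Dclre1c, the Artemis nuclease, had 2.54, 0.989, 0.855 and 1.14 FPKM (-1.03). Both calls ended under 5 of the alternatives, with -0.74 the value nearest to 0 for Atr and -0.83 for Dclre1c. Of 49 p53 targets and senescence genes, 4 fell (8.16%, against 2.69% of all genes), among them Gadd45b and Cxcl1 described below, and none rose (median -0.15). Against WT saline the median of these genes was -0.12 in the untreated and -0.36 in the treated Smad3 KO library. WT Dox against Smad3 KO saline had -0.05. Gadd45g, a stress sensor that slows the cell cycle, had 124, 39.3, 31.7 and 17.2 FPKM (-1.64). Mdm4, which holds p53 in check, had 19, 9.19, 8.09 and 8.88 FPKM (-1.01, with its call lost under 5 alternatives, highest -0.80), and Trp53 itself 26.4, 13.9, 16.9 and 12.3 FPKM (-0.91). The arrest gene Cdkn1a (p21), with 469, 418, 509 and 377 FPKM (-0.16), and the cell death gene Bax, with 32.5, 28.7, 28 and 23.1 FPKM (-0.18), differed little over the 4 libraries. Cdkn1a, Bax, Trp53, Mki67, Cdk1 and Top2b lie outside the rule for named genes and were chosen after their values were seen.

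Genes that cells switch on within minutes of a stimulus were lower nearly throughout. Of 58 immediate early genes, 96.6% lay below 0, against 56.9% of all genes, with a median of -0.46 that stayed between -0.65 and -0.34 under the alternatives. Their median against WT saline was -0.32 in the untreated and -0.59 in the treated Smad3 KO library, and WT Dox against Smad3 KO saline had -0.14, so WT saline was high against each of the others, 1 of them untreated. Gadd45b alone passed the rule, with 91.9, 39.2, 52.3 and 34.9 FPKM (-1.22). The levels of many were high. Ppp1r15a, which ends the integrated stress response, had 434, 237.2, 225 and 143 FPKM (-0.87), and Fosb, Atf3 and Egr1, chosen after their values were seen, went from 1491 to 948 FPKM (-0.65), from 1078 to 626 FPKM (-0.78) and from 1739.9 to 1133 FPKM (-0.62). The 27 glucocorticoid-responsive genes lay lower too, with 2 that fell (7.41%, against 2.69% of all genes), none that rose and a median of -0.34. Mt1, a metal-binding metallothionein, had 275, 129, 137 and 92.1 FPKM (-1.08, and -0.96 with upper-quartile scaling), and the clock gene Per1 118, 70.3, 77.2 and 59.3 FPKM (-0.74). WT saline was the highest library for both. Hif3a had 2.29, 0.768, 4.11 and 0.379 FPKM (-1.14, and -0.90 with a pseudocount of 1) and differed more between the Smad3 KO libraries than between the WT ones. The polyamine-degrading enzyme Sat1, at 235, 87.8, 88.5 and 78.7 FPKM (-1.42), and the phosphate carrier Slc20a1, at 97.2, 42.1, 44.6 and 25.6 FPKM (-1.20), were further abundant transcripts in which WT saline alone was high. Tfrc, the receptor that takes up iron on transferrin, had 9.74, 4.51, 5.33 and 6.25 FPKM (-1.03) and Hamp, the iron hormone hepcidin, 5.51, 1.48, 5.96 and 2.15 FPKM (-1.60). Tfrc lost its call under 5 alternatives (highest -0.92), while the WT Dox level of Hamp was below all others.

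Adhesion and chemokine genes fell in part. Of 31 genes of leukocyte adhesion and NF-κB signalling 3 fell (9.68%, against 2.69% of all genes), none rose, and the median was -0.31. Sele (E-selectin), with 10.6, 4.26, 3.76 and 3.06 FPKM (-1.22), was lowest in the Smad3 KO Dox library, while Selp (P-selectin), with 13.3, 5.34, 5.02 and 10.8 FPKM (-1.24), was back near the WT saline level there. The survival genes Birc3 (40.7, 20.4, 24.1 and 22 FPKM, -0.98) and Birc2 (9.95, 5.31, 6.61 and 7.08 FPKM, -0.85) were short of the rule, with WT saline highest. Map3k14, the kinase of the noncanonical NF-κB route, had 4.29, 1.51, 1.77 and 1.5 FPKM (-1.25). Icam1, at 106, 82.4, 99.5 and 60.0 FPKM (-0.37), and Vcam1, at 26.8, 24.4, 30.4 and 24.4 FPKM (-0.13), chosen after their values were seen, differed less than the selectins. Of 30 chemokine genes and receptors 2 fell (6.67%, against 2.69% of all genes) and none rose (median -0.40). Against WT saline the chemokine median was also -0.49 in the untreated and -0.79 in the treated Smad3 KO library. WT Dox against Smad3 KO saline had 0.20. Cxcl1, which draws neutrophils, had 119, 53.2, 66.9 and 68.5 FPKM (-1.16), and Ccl27a 5.58, 2.52, 2.03 and 6.95 FPKM (-1.01, and -0.90 with a pseudocount of 1). Il6 had 34.7, 19, 27.8 and 24.4 FPKM (-0.85), short of the rule, and no gene of 44 interleukins, TNF ligands and receptors passed it.

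The promoters of Sele and Cxcl1 (RefSeq, GRCm38.p6, the same window) are shown for these falls. Capitals mark TGACTCA, an AP-1 site, in Sele at chr1:164047984-164048283 on the plus strand, and GGAATTTCC, a κB site, in Cxcl1 at chr5:90890995-90891294 on the plus strand.
Sele: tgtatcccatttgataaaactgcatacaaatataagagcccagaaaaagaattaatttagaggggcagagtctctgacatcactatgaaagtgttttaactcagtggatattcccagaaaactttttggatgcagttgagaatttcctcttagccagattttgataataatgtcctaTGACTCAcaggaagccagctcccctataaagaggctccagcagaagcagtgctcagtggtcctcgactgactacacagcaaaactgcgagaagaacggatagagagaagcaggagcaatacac
Cxcl1: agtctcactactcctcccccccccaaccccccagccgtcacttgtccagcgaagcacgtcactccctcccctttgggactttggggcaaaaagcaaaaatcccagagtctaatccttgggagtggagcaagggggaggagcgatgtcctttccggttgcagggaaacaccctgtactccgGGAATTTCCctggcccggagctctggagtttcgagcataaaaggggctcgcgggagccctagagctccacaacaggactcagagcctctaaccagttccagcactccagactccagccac
On either strand, TGACTCA stood in 3.50% of all 8778 promoters and in 5.49% of the 182 that fell, which is 10 promoters. GGAATTTCC stood in 0.387% and 1.65%, which is 3 promoters. A second κB form searched, GGACTTTCC, was in 0.456% of all and in 1 of those that fell. The cyclic AMP element TGACGTCA was in 3.24% and 2.20%, the E-box CAGCTG in 14.6% of all, in 20 of the 182 that fell and in 13 of the 52 that rose, and the E-box CACGTG in 10.3%, 20 and 3. The interferon element GAAANNGAA was in 7.15% of all, 14 that fell and 3 that rose. The E2F forms TTTCGCGC, TTTGGCGC and TTTCCCGC were in 0.604%, 1.01% and 2.04% of all and in 1, 1 and 2 promoters of genes that fell.

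Class II antigen presentation genes lay somewhat higher, and the macrophage list was mixed. Of 10 class II genes 8 lay above 0, with a median of 0.33 and none past the rule. H2-Ab1, a chain of the class II molecule, had 78.8, 129, 61.1 and 90.6 FPKM (0.71), and WT Dox was the highest library. Its chaperone Cd74, chosen after its values were seen, had 273, 443, 230.1 and 227 FPKM (0.70). Of 37 macrophage genes 3 rose (8.11%, against 1.03% of all genes) and 1 fell (2.70%, against 2.69%). The median of the list, 0.12, turned below 0 with TPM (-0.06). Trem2, a lipid-sensing receptor of macrophages, had 3.2, 7.8, 3.39 and 0.97 FPKM (1.16), Mpeg1, a pore protein, 3.36, 7.87, 3.74 and 3.47 FPKM (1.12, and 0.99 with TPM) and Lgals3 (galectin-3) 4.65, 9.99, 5.68 and 13 FPKM (1.03, and 0.88 at the lowest among 5 alternatives that ended its call). Cd209f, a lectin, fell, with 3.94, 1.16, 2.08 and 0.857 FPKM (-1.42). The general markers did not move with them, since Adgre1 had 9.96, 10.3, 6.06 and 3.23 FPKM (0.05) and Ptprc 7.06, 5.36, 6.96 and 3.32 FPKM (-0.37). Mmp12, a macrophage elastase, had 0.943, 2.64, 0.803 and 1.62 FPKM (1.12, and 0.91 with a pseudocount of 1). Of 63 interferon-responsive genes none rose and 1 fell, and the median of 0.06 turned to -0.10 with TPM. Ifit1, at 15.2, 26.7, 18.6 and 59.5 FPKM (0.79), and Ifi27l2a, at 19.8, 36.9, 19.7 and 15.5 FPKM (0.88), were the highest of them in this comparison, and for Ifit1 the Smad3 KO Dox library was higher still.

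Most genes of vascular identity differed little in size. None of 24 genes of heart capillaries and lipid uptake passed the rule, and their median was 0.28, above 0 under every alternative (0.09 to 0.39). Against WT saline their median was also 0.22 in the untreated and 0.20 in the treated Smad3 KO library. WT Dox against Smad3 KO saline had 0.03. Aqp7, a glycerol channel, had 32.1, 48.1, 43.1 and 57.6 FPKM (0.58) and Car4, a carbonic anhydrase of the capillary surface, 127, 183, 159 and 136 FPKM (0.52). The fatty acid transporter Cd36, at 1889.7, 2349.8, 1991 and 1311 FPKM (0.31), and the nitric oxide synthase Nos3, at 109, 106.9, 109.7 and 115 FPKM (-0.02), both chosen after their values were seen, stood at similar levels in the 2 WT libraries. None of 22 arterial genes passed. Gja5, a connexin of arterial endothelium, was highest in WT Dox, at 19.1, 28.2, 19.7 and 19.7 FPKM (0.55). Lymphatic genes lay lower, with 85.7% of 14 below 0, a median of -0.33 and 1 that fell (7.14%, against 2.69% of all genes). That gene, Nts (neurotensin), had 15.7, 5.4, 8.69 and 10.1 FPKM (-1.46). The lymphatic median against WT saline was also -0.43 in the untreated and -0.80 in the treated Smad3 KO library. WT Dox against Smad3 KO saline had -0.03. The lymphatic regulator Prox1, at 2.99, 1.83, 1.97 and 1.09 FPKM (-0.59), and the hyaluronan receptor Lyve1, at 63.6, 45.5, 47.1 and 20.8 FPKM (-0.48), chosen after their values were seen, were lower in the 3 other libraries than in WT saline. Of 11 endocardial genes none passed (median -0.21). Of 15 venous genes 2 fell (13.3%, against 2.69% of all genes), the selectins Selp and Sele, and none rose (median -0.18).

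Contact, guidance and matrix genes gave single members rather than groups. Cldn12, a claudin, had 29.1, 7.89, 13.3 and 5.32 FPKM (-1.82). It was the 1 of 26 junction genes that fell (3.85%, against 2.69% of all genes), and none rose. The semaphorins Sema3a and Sema6d, which steer axons and vessels, fell among 42 guidance genes (4.76%, against 2.69% of all genes), and none rose. Sema3a had 5.98, 2.42, 1.82 and 1.62 FPKM (-1.15) and Sema6d 19.5, 9.46, 8.57 and 6.15 FPKM (-1.01), with WT saline high in both. The call of Sema3a ended without the length trend (-0.95), and that of Sema6d under 5 alternatives (highest -0.86). Among matrix genes Thbs1, an antiangiogenic glycoprotein, had 33.5, 11.9, 18.4 and 14.9 FPKM (-1.45), Adamts10, which acts on fibrillin, 12.6, 4.41, 3.35 and 7.03 FPKM (-1.42) and Has1, a hyaluronan synthase, 3.14, 1.31, 1.35 and 1.76 FPKM (-1.01, and -0.85 at most). WT saline was the highest library in these 3. Of 21 collagens 1 rose (4.76%, against 1.03% of all genes), none fell, and the median was -0.33. The collagen that rose was Col7a1 of epithelial anchoring fibrils, at 0.618, 12.9, 0.05 and 0.05 FPKM (3.58). None of 39 integrin and focal adhesion genes and none of 18 genes of endothelial-to-mesenchymal transition passed.

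Genes in which WT Dox stood away from all other libraries are the ones that neither WT saline nor either Smad3 KO library shared. Zfp771, a zinc finger protein, had the highest WT Dox level among the higher protein-coding ones, with 4.72, 104, 5.25 and 12.2 FPKM (4.32). Rpain, which carries replication protein A into the nucleus, had 11.6, 24.8, 10.9 and 7.54 FPKM (1.06, and 0.89 with TPM). Egfr, the receptor for epidermal growth factor, had 2.45, 6.28, 1.61 and 1.82 FPKM (1.20), and Zfp365 0.277, 3.8, 0.284 and 0.244 FPKM (2.47). For Egfr the other 3 libraries lay between 1.61 and 2.45 FPKM. With Trem2, Col7a1 and Cox7b2 above and Cd84 at the edge of the rule, the further named protein-coding genes of this kind included Tmem116, Gfra1, Sowahc, Zfp668, Prr5l and Gprasp2, each averaging under 5 FPKM. Of these, Sowahc had 0.433, 9.74, 0.262 and 0.225 FPKM and Tmem116 0.495, 9.96, 1.3 and 2 FPKM. They were chosen after their values were seen. In Zfp365, Col7a1, Cox7b2 and Sowahc every library but WT Dox was under 1 FPKM. These genes passed the filter only through WT Dox, so their standing apart follows in part from the filter. Among lower genes, Ppp2r3d, a regulatory subunit of phosphatase 2A, had 180.0, 53.4, 115 and 128 FPKM (-1.74), Hemk1, a methyltransferase of translation release factors, 10.8, 2.46, 8.9 and 5.74 FPKM (-1.94) and Coa4, an assembly factor of complex IV, 6.2, 2.57, 8.45 and 6.19 FPKM (-1.13). That WT Dox lay at least 1 below each of the other 3 in these genes follows from how this kind was defined. Tpmt, the methyltransferase that inactivates thiopurine drugs, chosen after its values were seen, had 5.48, 0.927, 7.25 and 3.26 FPKM (-2.07), and Trbc2, the T cell receptor constant chain, 3.4, 1.28, 3.08 and 5.04 FPKM (-1.13, and -0.95 with a pseudocount of 1). Of the 61 genes of this kind, 19 averaged 5 FPKM or more.

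Several strong differences lay in genes in which the Smad3 KO libraries took either side. Immp2l, a protease of the inner mitochondrial membrane, had 6.23, 21.5, 36.5 and 12.2 FPKM (1.71), so that Smad3 KO saline was above WT Dox. Cyp26b1, which breaks down retinoic acid, had 2.97, 10.3, 8.04 and 2.96 FPKM (1.64). Bach2, a repressor known from lymphocytes, had 5.61, 13.5, 9.98 and 3.12 FPKM (1.19). In both Cyp26b1 and Bach2, WT Dox and Smad3 KO saline were the high pair. Rccd1, a chromatin-associated protein, had 2.71, 11.4, 3.99 and 5.82 FPKM (1.89). Rccd1 overlaps Prc1 on chromosome 7 in the annotation, and as Rccd1 rose Prc1 fell, and how reads were split between the neighbours cannot be told apart from either change. D17H6S53E had 3.02, 8.32, 7.37 and 4.28 FPKM (1.33). Ankrd1, a stress-responsive ankyrin repeat protein of muscle and a YAP target, had 5.96, 15.7, 16.2 and 20.0 FPKM (1.32), and Myoz2, a Z-disc protein, 38.7, 87.6, 93.7 and 149 FPKM (1.17, and 0.99 with TPM). In Ankrd1 and Myoz2 WT saline was the low library and Smad3 KO Dox the high one, as in the sum of the cardiomyocyte list. Of the 44 genes of that list above the filter 2 rose (4.55%, against 1.03% of all genes). In the other direction 1 fell (2.27%, against 2.69%), Sln (-1.01, and -0.90 nearest to 0 among the alternatives that ended its call). The part of cardiomyocyte RNA in these muscle genes was not tested.

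Large groups of genes held no member past the rule. Of 97 lists, 41 held none, and these list entries came to 1702. They included the E3 ligases and deubiquitinases, 132 genes of vesicle traffic, 80 small GTPase regulators, 78 heat shock proteins and chaperones, 73 genes of autophagy and lysosomes, 50 proteasome genes, 43 vasoactive genes and 39 apoptosis genes. Hspa1b, an inducible chaperone, went from 176 to 116 FPKM (-0.59), and Adamts1 of the angiogenic list from 628 to 350.1 FPKM (-0.84). Ptgs2, the inducible cyclooxygenase, had 17, 10.1, 9.38 and 5.07 FPKM (-0.72). Reference genes were close, with Gapdh at 484, 504, 538 and 787 FPKM (0.06) and Hprt at 48.8, 52.3, 64 and 83.1 FPKM (0.10), and of the 15 control genes Tfrc alone passed the rule. Over the 97 lists, which share some genes, the median lay below 0 in 67 and above 0 in 30. It kept its sign under every alternative in 50, of which 43 were below 0 and 7 above.

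**Figure D5:**
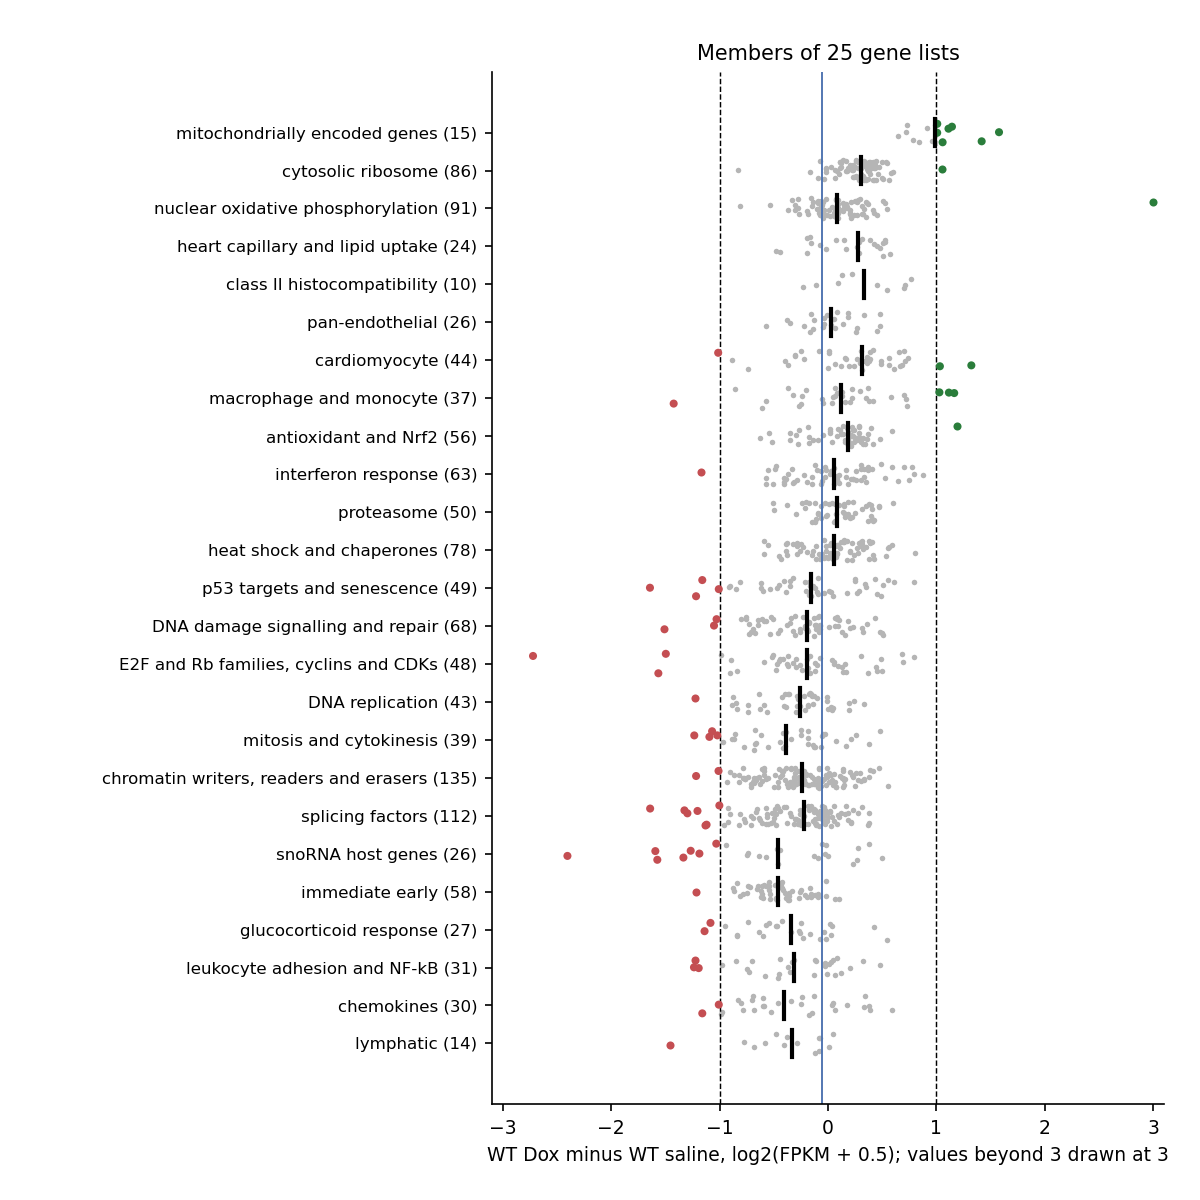
Log2(FPKM + 0.5) difference, WT Dox minus WT saline, of each member above the filter in 25 gene lists, with the number of members in brackets, black bars at the medians, dashed lines at the size rule and a blue line at the median of all genes (-0.06). Coloured points passed the size rule, and values beyond 3 are drawn at 3. The mitochondrially encoded genes lie to the right (median 0.99), and the snoRNA host genes (-0.47) and immediate early genes (-0.46) lie to the left.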

How the data were processed

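RNA-seq was run on bead-selected cardiac endothelial cells, 1 library in each of 4 groups. The authors deposited 1 table of FPKM values per gene for the 4 libraries, made with CASAVA and STAR on GRCm38 p4 per the submitters' processing notes. The study's methods name other aligners and a human build for RNA-seq, so the aligner is uncertain. Neither the release of the annotation nor whether strand was used is given in the sources used here. The table had 45952 lines and 45882 gene IDs. The 51 IDs on 121 lines were summed, 27 symbols turned into dates were matched by ID, and 1 value below 0.05 FPKM, the lowest of the table, was set to it. All sample columns were used. 20531 IDs were at 0.05 FPKM in all 4 libraries. Gene classes and exons came from GENCODE M21, which held 45038 of the IDs.

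Differences were log2(FPKM + 0.5) over genes averaging 1 FPKM or more, computed in Python 3.11.15 with pandas 2.3.3, numpy 2.4.6 and scipy 1.17.1, and the scripts were tested on simulated data. With 1 library per group there is no test. The size rule was 1 on the log2 scale, and a library was apart where it differed by at least 1 in the same direction from each of the others. Depth was estimated from the steps between the values of low genes with 1 annotated transcript, of which 78.3% to 82.7% were within 0.1 of whole fragments. Named genes were Smad3, up to 6 members of each list past the rule or up to 2 where none passed, the 15 highest and 15 lowest protein-coding genes and the 12 highest and 12 lowest genes in which a WT library was apart with a mean of at least 5 FPKM, genes nearest to the rule, controls and defining markers, and exceptions are stated beside them. Of 236 named genes 118 overlap another annotated gene, whose reads cannot be told apart. The members and the 97 lists were chosen with earlier results of these data known. Alternatives were other pseudocounts, filters, scalings, gene classes, trends and size rules.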

Additional observations from a re-analysis of the deposited data

Results flagged for a closer look

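In 8 of the named genes the WT pair and the Smad3 KO pair moved by at least 1 in opposite directions, WT Dox minus WT saline against Smad3 KO Dox minus Smad3 KO saline. With 1 library per group the difference between the pairs was not tested. Higher in WT Dox and lower in Smad3 KO Dox were Bach2 (1.19 against -1.53), Cyp26b1 (1.64 against -1.31), Immp2l (1.71 against -1.54), Trem2 (1.16 against -1.40), mt-Co3 (1.14 against -1.83) and mt-Nd4 (1.01 against -1.27). Lower in WT Dox and higher in Smad3 KO Dox were Ccl27a (-1.01 against 1.56) and Selp (-1.24 against 1.03). With TPM mt-Co3 and mt-Nd4 were 0.96 and 0.82 in the WT pair, and the WT call of mt-Nd4 also ended under 3 other alternatives. That of Ccl27a ended under 4, with -0.90 as its value nearest to 0.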

How the results depend on the processing

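The count of 459 genes past the size rule was 690 when only the lowest values were replaced by 0.5, 814 without a filter, 164 with a mean of at least 5 FPKM, 741 with TPM, 263 over nuclear protein-coding genes and 86 with a size rule of 2. The 61 genes with WT Dox apart became 94 with a pseudocount of 0.1, 100 with values under 0.5 set to 0.5, 104 with only the lowest values set to it, 144 without a filter, 19 at 5 FPKM, 24 over protein-coding genes and 20 with the size rule of 2. The 150 genes with WT saline apart became 253 without a filter, 58 at 5 FPKM, 280 with TPM, 88 over protein-coding genes and 21 with the size rule of 2. The causes were not tested beyond the construction of each setting. No named gene past the rule changed sign, but the median over all genes, -0.06, was 0.05 with upper-quartile scaling, and 50 of the 97 list medians kept their sign under every alternative. The removal of the trend with exon number was chosen after seeing the data. Of 117 named genes past the rule, 75 passed it under every alternative but the size rule of 2. No paired analysis was possible because each group has 1 library. Counting error limits genes near 1 FPKM, and the spread between mice is unknown.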

Other observations

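Genes on the Y chromosome held a larger share past the rule than those of any other nuclear chromosome, with 11 higher and 4 lower of 46, most of them predicted genes of multi-copy families whose near-identical copies share reads. Among 28 replication-dependent histones, made in S phase, 2 rose (7.14%, against 1.03% of all genes) and 1 fell (3.57%, against 2.69%). Their median was 0.14, or -0.04 with TPM. Hist1h4k had 0.159, 4.5, 3.69 and 11.3 FPKM (2.92), and WT saline was the low library. Histone messages lack poly(A) tails and near-identical copies share reads, so these levels are uncertain.

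Among 264 C2H2 zinc finger genes 3 rose (1.14%) and 6 fell (2.27%), with a median of -0.18. Over all genes these shares were 1.03% and 2.69%, so the list was close to them. Zfp940 had 11.9, 0.448, 0.785 and 0.485 FPKM (-3.71), with WT saline far above the rest. Of 93 enzymes of glycosylation, sulfation and GPI anchors 3 fell (3.23%) and none rose. Of 185 solute carriers 4 fell (2.16%) and none rose. In both lists the share that fell was near the 2.69% of all genes. Snora73a and Snora73b, snoRNAs from the locus of Snhg3, had the same level in WT saline, 17.5, 0.05, 0.05 and 0.05 FPKM for the first over the 4 libraries, so values of such short RNAs are uncertain.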
